A study of Mus musculus with 18 samples.

Results

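The genes described here encode the proteasome: every gene with a symbol of the Psma, Psmb, Psmc, Psmd, Psme, Psmf or Psmg series followed by a number, together with Nfe2l1. Of the 18193 mouse genes that the array could measure with a probe set naming a single gene, 50 met this rule. They were covered by 104 of the 45037 probe sets, 23 genes by 1 probe set and 27 by 2 or more, and each gene is given by its brightest probe set. A further matching probe set named both Psme2 and Psme2b and was left out. The list also holds 2 genes that encode no proteasome protein: Psmc3ip is a cofactor of meiotic recombination, and Psme3ip1 is a partner of the activator Psme3. Psma8, the alpha subunit of the testis, and Psmb11, the beta subunit of the thymus, were dim, with mean levels under all array medians, and the other 48 members were brighter.

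RNA came from female Sv129 mice aged 10 wk that had spent 10 days at 6°C or at 28°C, singly caged, with no transgene or drug in any group. Interscapular brown adipose tissue (BAT), subcutaneous white adipose tissue (sWAT) and mesenteric white adipose tissue (mWAT) were each measured at both temperatures on 3 arrays, 18 arrays in 6 groups, and the methods call the 3 biological replicates. Groups were taken from titles, source names and descriptions, because the tissue and temperature among the other characteristics name other groups. Whether the arrays of a mouse recur across depots was not stated. All levels below are log2 of the deposited intensity. Levels are compared only for the same probe set across arrays. Changes come from limma and are given ± SE, and a member was called when its p, adjusted by Benjamini-Hochberg over all 45037 probe sets, was under 0.01.

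The 26S proteasome degrades proteins that carry ubiquitin. Its barrel-shaped core is built of outer alpha rings and inner beta rings, and its cap recognizes, unfolds and feeds in the substrate through a ring of ATPases. Interferon-stimulated cells and lymphocytes exchange the catalytic subunits Psmb5, Psmb6 and Psmb7 for Psmb8, Psmb9 and Psmb10, which gives the immunoproteasome, a source of peptides for MHC class I. When proteasome activity falls short, the membrane-bound transcription factor Nfe2l1 is processed and induces proteasome genes through antioxidant response elements, and in brown fat of mice it is known to serve cold adaptation.

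The labels were borne out in part by Ucp1, the uncoupling protein of brown adipocytes. It was at 14.31 to 14.40 in BAT at 6°C and 14 to 14.07 in BAT at 28°C. In sWAT it was 13.68 to 13.95 at 6°C and 9.52 to 10.55 at 28°C. In mWAT it was 8.76 to 10.15 at 6°C and 6.27 to 6.76 at 28°C. Ucp1 does not tell sWAT at 28°C from mWAT at 6°C, whose ranges overlapped. The mean of 5 mammary epithelium genes was 9.93 to 11.81 in sWAT at 28°C and 7.59 to 8.30 in mWAT at 6°C. Adipoq, the adiponectin gene, lay between 13.50 and 13.85 on all arrays. In BAT it was 13.50 to 13.53 at 6°C, against 13.71 to 13.72 at 28°C. The mean of 3 adipocyte genes was 12.08 to 12.72 in BAT at 6°C, against 13.37 to 13.54 at 28°C, without overlap. Of the 3, limma called 1 lower in BAT at 6 versus 28°C, Lep (-2.76 ± 0.58, adjusted p = 0.0065). The part of adipocyte content in the changes in BAT was not tested. Array 3 of mWAT at 6°C and array 3 of mWAT at 28°C stood apart. Their mean level of 8 lymphocyte genes was 7.52 and 7.67, against 11.58 to 11.76 on the other 4 mWAT arrays, and their correlation with those 4 was 0.949 to 0.969, against 0.991 with each other. Skeletal muscle genes were high on arrays 2 and 3 of BAT at 28°C and array 2 of BAT at 6°C, and on array 2 of sWAT at 6°C and arrays 1 and 2 of sWAT at 28°C. Pancreas genes were high on array 3 of BAT at 6°C, array 2 of mWAT at 6°C and array 1 of mWAT at 28°C. Fits without both of these mWAT arrays, without the 3 muscle-rich arrays of BAT, without the 3 of sWAT, and without the 3 pancreas-rich arrays were run as well. A lower level in whole tissue can be fewer cells of a type or less RNA per cell, which these arrays cannot tell apart.

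The promoters of Psmb9, Psmb8 and Psme1 are printed first because these genes had among the lowest changes in cold BAT and their windows hold a shared promoter or a motif match. That of Psmb10 held no match to the 3 motifs searched and is not shown. The windows run from 250 bases before to 50 bases after the start site in RefSeq (mouse, GRCm38.p6), and 40 of the 48 members that are proteasome genes or Nfe2l1 have one. Psmb9 and Tap1, a subunit of the peptide transporter of antigen presentation, lie back to back on chromosome 17 with start sites 226 bases apart, so their windows share 275 bases. In the Psmb9 window (chr17:34187281-34187580, minus strand) capitals mark the stretch from one start site to the other. In the Psmb8 window (chr17:34197945-34198244, plus strand) capitals mark a match to the gamma-activated site TTCNNNGAA, and in the Psme1 window (chr14:55578244-55578543, plus strand) a match to the core of the interferon-stimulated response element (GAAA, any 2 bases, GAAA), which here lies on the other strand.
Psmb9: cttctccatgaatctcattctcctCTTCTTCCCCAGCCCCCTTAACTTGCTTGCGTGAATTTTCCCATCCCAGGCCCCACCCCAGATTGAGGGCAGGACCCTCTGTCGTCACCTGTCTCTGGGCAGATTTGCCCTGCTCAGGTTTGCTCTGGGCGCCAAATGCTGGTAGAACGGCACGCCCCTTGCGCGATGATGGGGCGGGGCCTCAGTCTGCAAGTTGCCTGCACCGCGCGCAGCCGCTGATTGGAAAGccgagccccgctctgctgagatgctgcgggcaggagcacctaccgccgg
Psmb8: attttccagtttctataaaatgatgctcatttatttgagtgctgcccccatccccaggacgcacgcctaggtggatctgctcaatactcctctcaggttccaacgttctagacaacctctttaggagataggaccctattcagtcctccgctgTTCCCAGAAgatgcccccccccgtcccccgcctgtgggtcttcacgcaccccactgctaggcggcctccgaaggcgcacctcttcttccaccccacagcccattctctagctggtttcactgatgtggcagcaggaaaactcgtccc
Psme1: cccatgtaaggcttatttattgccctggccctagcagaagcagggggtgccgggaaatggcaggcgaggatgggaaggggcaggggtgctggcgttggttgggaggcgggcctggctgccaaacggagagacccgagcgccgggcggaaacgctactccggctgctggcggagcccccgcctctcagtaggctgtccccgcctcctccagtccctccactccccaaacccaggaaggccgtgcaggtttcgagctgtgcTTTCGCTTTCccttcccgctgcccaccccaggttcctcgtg

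Of the 40 members with a window, 5 (12.5%) held the interferon-stimulated response element core on either strand, against 3.99% of the windows of 27025 genes: Psmb3, Psmd4, Psmd9, Psme1 and Psmg4. The palindromic TTCNNNGAA was in 3 members (7.5%), Psmb8, Psmd2 and Psmg1, against 9.55% of all windows. The core of the antioxidant response element, TGACNNNGC on either strand, was in 6 members (15%), against 14% of all windows: Psmb5, Psmb6, Psmc6, Psmd12, Psmd9 and Psme4. No match overlapped a match to another motif. The matches of the constitutive catalytic subunits, in capitals, stand near their start sites, at chr14:54618026-54618050 (minus strand) for Psmb5 and chr11:70525340-70525364 (plus strand) for Psmb6.
Psmb5: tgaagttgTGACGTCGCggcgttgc
Psmb6: aaagagagTGACGGAGCgctttacg

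In BAT at 6°C most constitutive subunits of the proteasome had higher levels than at 28°C, and the inducible subunits had lower ones. Of the 50 members, 37 had a positive and 13 a negative change at 6 versus 28°C, with a median of 0.15, against a median of 0.01 over all 18193 genes. The 3 arrays at 6°C lay all above those at 28°C for 29 members, where 19.9% of all genes did so, and all below for 9, where 19.9% did so as well. Psmd7 and Psmc4 were called higher (2 of 50, against 2.8% of all genes) and Psme1 lower (1 of 50, against 2.53%), and 17 members had an unadjusted p under 0.05. The share of all genes with an unadjusted p under 0.05 was not counted for any contrast. This and the later counts of that kind therefore cannot be read as more or fewer than among all genes. The 31 constitutive subunits of core and cap had a median change of 0.16, 27 of them positive, and 23 had all arrays at 6°C above all arrays at 28°C. Psmb8, Psmb9, Psmb10 and Psme1 had the 4 lowest changes of all members.

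**Figure D1:**
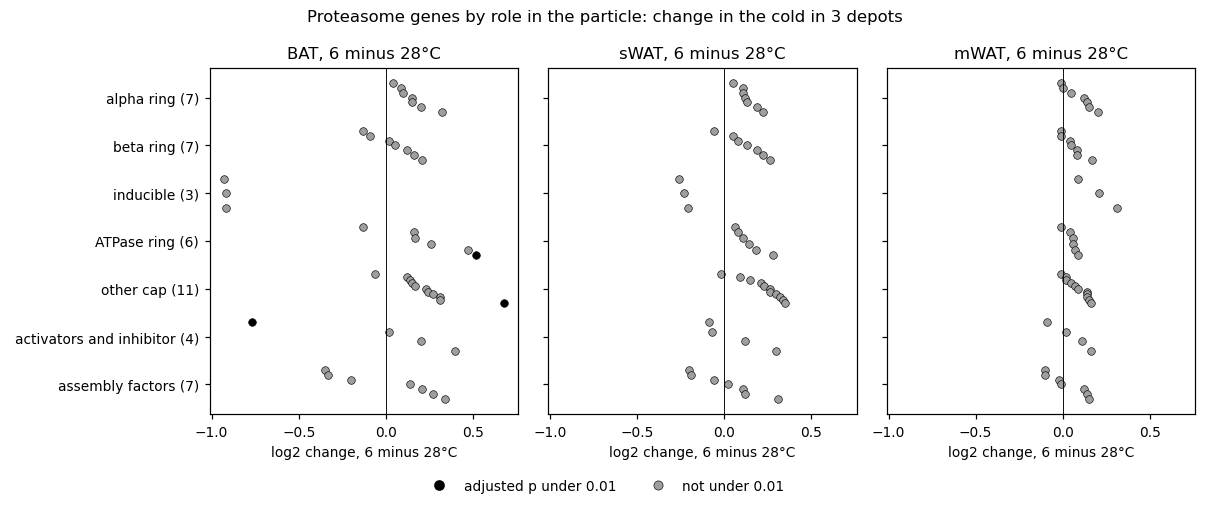
Log2 change at 6 minus 28°C (x axis) of each proteasome gene, 1 point a gene, in rows by role with the number of genes, for BAT, sWAT and mWAT; black points had an adjusted p under 0.01 in limma. In BAT the 3 inducible subunits sit near -0.92 and most core and cap genes right of 0, and in mWAT the inducible subunits sit between 0.09 and 0.31.

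Psmd7, a cap subunit that pairs with the deubiquitinase Psmd14, had levels of 10.88, 10.83 and 10.75 on the arrays of BAT at 6°C, against 10.08, 10.22 and 10.13 in BAT at 28°C. The groups stood apart by more than their own spread. The change was 0.68 ± 0.14 (1.60-fold, adjusted p = 0.0054, n = 3 each). Its 2 other, dimmer probe sets changed by 0.29 (adjusted p = 0.19) and 0.58 (adjusted p = 0.017), in the same direction without being called.

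Psmc4, an ATPase of the ring that threads substrates into the core, had 12.64, 12.57 and 12.61 in BAT at 6°C, against 12.05, 12.08 and 12.13 in BAT at 28°C. Again no arrays overlapped, and the change was 0.52 ± 0.10 (1.44-fold, adjusted p = 0.0042, n = 3 each), with 0.36 (adjusted p = 0.087) for a second probe set. The mean of 6 skeletal muscle genes was 7.89, 10.76 and 8.66 on the arrays of BAT at 6°C, against 8.78, 13.05 and 12.69 at 28°C. The part of muscle RNA in the changes of Psmc4 and Psmd7 was not tested. Leaving out any 1 of the 6 BAT arrays left both genes uncalled, with adjusted p up to 0.020 for Psmc4 and 0.024 for Psmd7. Without the 3 BAT arrays or the 3 sWAT arrays high in muscle genes, or without the 3 arrays high in pancreas genes, 0 members were called at 6 versus 28°C in BAT.

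Psmc5 changed by 0.47 ± 0.12 (adjusted p = 0.018) and Psmc6 by -0.13, the lowest of the ring. Of the 6, 5 had all arrays at 6°C above those at 28°C, where 19.9% of all genes did so. Psmc6 had all arrays at 6°C below, where 19.9% did so as well. Of the 11 other cap subunits, 10 had a positive change and 9 had no overlap of arrays, all higher at 6°C, with Psmd8, a lid subunit, lowest at -0.06. Psmd4, a ubiquitin receptor of the cap, changed by 0.31 (adjusted p = 0.042), and a second, dimmer probe set of it was called at 0.49 (adjusted p = 0.0056). All 7 alpha subunits were positive, between 0.04 for Psma5 and 0.32 for Psma6 (adjusted p = 0.041). The 7 constitutive members of the beta ring lay between -0.13 for Psmb4 and 0.21 for Psmb5, with a median of 0.05.

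**Figure D2:**
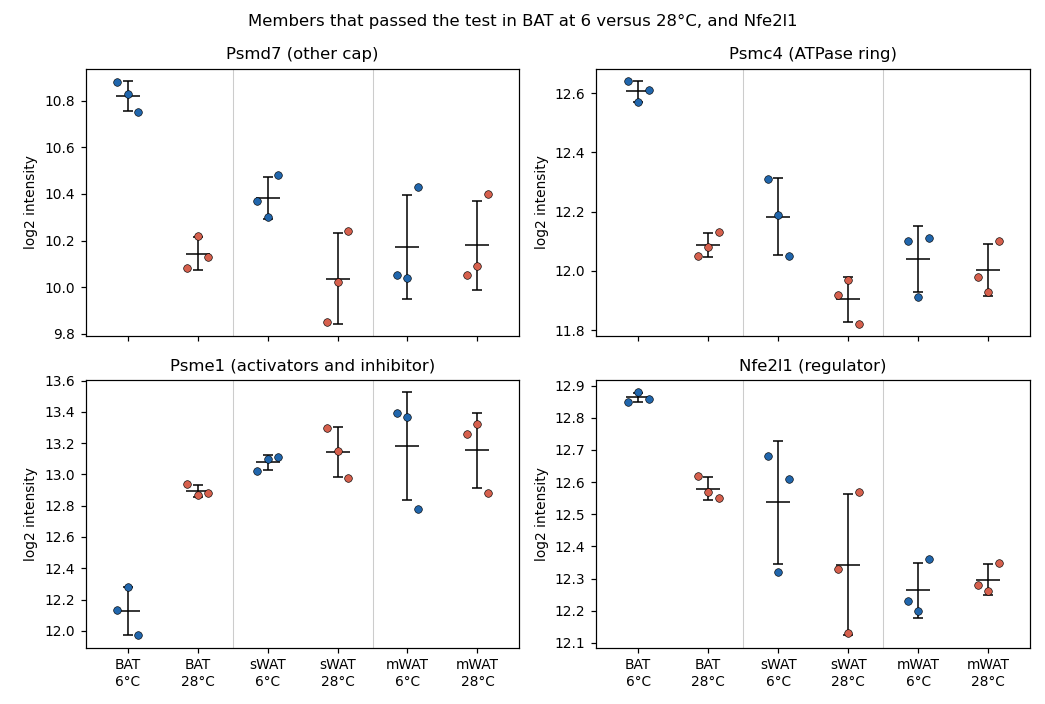
Log2 intensity (y axis) on each array of the 6 groups (x axis) for Psmd7, Psmc4, Psme1 and Nfe2l1, blue at 6°C and red at 28°C; the bar is the group mean and the whisker the SD (n = 3). The 3 BAT arrays at 6°C lie above those at 28°C for Psmd7, Psmc4 and Nfe2l1 and below them for Psme1.

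Nfe2l1, the regulator of proteasome genes, was at 12.85, 12.88 and 12.86 in BAT at 6°C, against 12.62, 12.57 and 12.55 in BAT at 28°C. All arrays at 6°C were higher, by 0.28 ± 0.12 (adjusted p = 0.16), which is not past the threshold. In sWAT its levels were 12.68, 12.32 and 12.61 at 6°C, against 12.33, 12.13 and 12.57 at 28°C, and in mWAT 12.23, 12.20 and 12.36 at 6°C, against 12.28, 12.26 and 12.35 at 28°C. The white depots overlapped between temperatures. Between depots, Nfe2l1 was called higher in BAT than in mWAT at 6°C, by 0.60 ± 0.12 (1.51-fold, adjusted p = 0.0010). At 28°C the difference was 0.28 (adjusted p = 0.078).

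The inducible catalytic subunits were all lower in cold BAT, by 0.93 ± 0.39 for Psmb8, 0.92 ± 0.45 for Psmb9 and 0.92 ± 0.21 for Psmb10 (0.524, 0.530 and 0.527 of the level at 28°C), with SEs of unequal size. Psmb8 had 9.37, 9.63 and 9.52 in BAT at 6°C, against 10.41, 10.27 and 10.63 at 28°C. Psmb9 had 8.85, 9.26 and 9.06 at 6°C, against 10.08, 9.79 and 10.04 at 28°C. Psmb10 had 10.43, 10.59 and 10.51 at 6°C, against 11.40, 11.43 and 11.48 at 28°C. No array at 6°C reached the lowest at 28°C for any of the 3 genes. In the fit of all 18 arrays their adjusted p-values were 0.15, 0.21 and 0.011, so none was called. Psmb10 was called when array 2 or 3 of mWAT at 6°C was left out, and its adjusted p ran between 0.00061 and 0.041 over the 18 arrays left out in turn.

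All groups share the spread in these tests, and the mWAT arrays were spread most widely. Psmb8 had 12.29, 12.16 and 10.62 in mWAT at 6°C and 11.92, 12.16 and 10.72 at 28°C, the lowest value at each temperature being that of the array poor in lymphocyte RNA. Without those 2 arrays all 3 genes were called in BAT (adjusted p = 0.0021, 0.0064 and 0.00031 for Psmb8, Psmb9 and Psmb10). In a fit of the BAT arrays alone the adjusted p-values were 0.014, 0.019 and 0.0066, and without the 6 mWAT arrays 0.0056, 0.014 and 0.0014. Without the 3 BAT arrays high in muscle genes the values were 0.57, 0.55 and 0.25, with changes of -0.96, -1.13 and -0.93. These fits, other than that of the BAT arrays alone, were chosen after the data were seen. With the mean of its probe sets in place of the brightest, the change of Psmb8 was -0.56. That mean takes in a dim probe set with a mean level of 4.69, under all array medians. By itself the dim probe set changed by -0.19 (adjusted p = 0.76).

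The constitutive counterparts did not mirror this. Psmb5 had 13.02, 12.99 and 13.06 in BAT at 6°C, against 12.95, 12.85 and 12.63 at 28°C, a change of 0.21 ± 0.11 (adjusted p = 0.21). Psmb6 had 13.11, 13.01 and 13.09 at 6°C, against 13.19, 13.17 and 13.12 at 28°C, a change of -0.09 ± 0.10 (adjusted p = 0.62). Psmb7 had 12.72, 12.57 and 12.53 at 6°C, against 12.45, 12.46 and 12.42 at 28°C, a change of 0.16 ± 0.14 (adjusted p = 0.51). Within each array, the difference of each inducible subunit from the subunit it replaces therefore changed at 6 versus 28°C in BAT by -1.15 for Psmb8 and Psmb5, -0.82 for Psmb9 and Psmb6, and -1.08 for Psmb10 and Psmb7. In sWAT these changes were -0.48, -0.16 and -0.40, and in mWAT 0.05, 0.22 and 0.26. They are given as descriptions without a test.

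**Figure D3:**
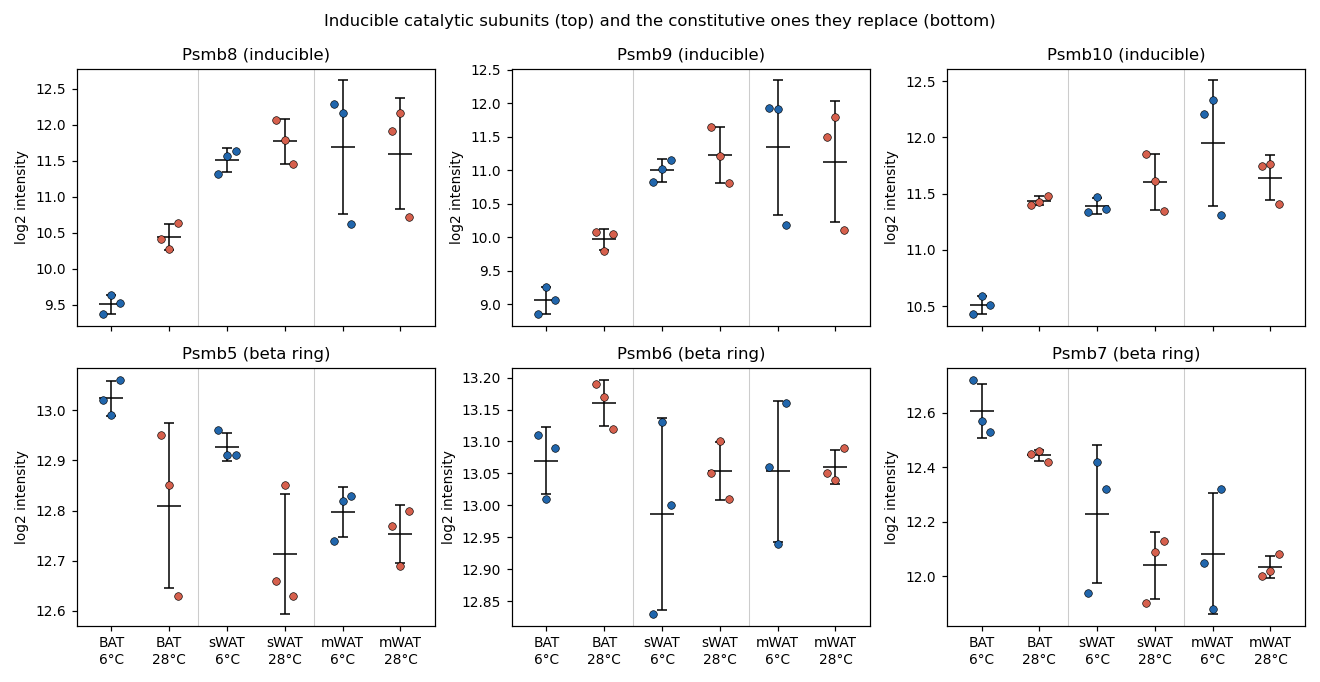
Log2 intensity (y axis, scaled for each gene and not starting at 0) on each array of the 6 groups (x axis), blue at 6°C and red at 28°C, with the group mean (bar) and SD (whisker, n = 3). Psmb8, Psmb9 and Psmb10 are lowest in BAT at 6°C, while Psmb5, Psmb6 and Psmb7 vary over a narrower range, such as 12.63 to 13.06 for Psmb5.

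Psme1, a subunit of the 11S activator that opens the core without ATP and is induced by interferon, was the only member called lower in cold BAT in the fit of all arrays. Its levels were 12.13, 12.28 and 11.97 in BAT at 6°C, against 12.94, 12.87 and 12.88 in BAT at 28°C. The arrays did not overlap, and the change was -0.77 ± 0.17 (0.587-fold, adjusted p = 0.0075, n = 3 each). Leaving out single arrays gave adjusted p-values of 0.0018 to 0.040, above 0.01 for 11 of the 18, namely all 6 of BAT, all 3 of sWAT at 6°C, array 2 of sWAT at 28°C and array 1 of mWAT at 28°C. It was 0.15 without the 3 BAT arrays high in muscle genes, 0.020 without the 3 sWAT arrays high in muscle genes, 0.054 without the 3 arrays high in pancreas genes and 0.00056 without both mWAT arrays poor in lymphocyte RNA. In the fit of the BAT arrays alone, none of the 3 called members kept its call (adjusted p = 0.015 for Psme1, 0.022 for Psmc4 and 0.014 for Psmd7), and Psmb10 was the only one called. The related Psme3, an activator of the nucleus, changed by 0.02 and overlapped. Its dimmer probe sets changed by 0.31 (adjusted p = 0.076) and -0.39 (adjusted p = 0.12). Psme4, the activator PA200, changed by 0.40 (adjusted p = 0.019), with a dimmer probe set called at 0.71 (adjusted p = 0.0024). Psmf1, an inhibitor of the core, changed by 0.20, and its dimmer probe sets by 0.73 (adjusted p = 0.047), 0.13 and 0.09.

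The chaperones that assemble core and cap changed in both directions in cold BAT, and 0 of 7 were called by limma (2 with an unadjusted p under 0.05). Psmd10, a chaperone of the ATPase ring, was highest at 0.34 and Psmg4, a chaperone of the alpha ring, lowest at -0.35. Psmg2, another chaperone of the alpha ring, changed by -0.33 (adjusted p = 0.11) with no overlap of arrays. A dim second probe set of Psmd9, also a chaperone of the ATPase ring, was called at 1.28 (adjusted p = 0.00094), while its brightest probe set was not. In all, 3 of the 54 probe sets that are not the brightest of their gene were called at 6 versus 28°C in BAT, all higher. The 2.8% of all genes called higher counts only the brightest probe set of each gene, so it is not a like share.

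Some other genes of antigen presentation were called lower in cold BAT. The mean of 21 genes of MHC class I and the interferon response was 9.79 to 9.99 in BAT at 6°C, against 10.24 to 10.35 at 28°C, with a median change of -0.33 and 4 genes called, all lower, against 2.53% of all genes: H2-D1 (-0.76 ± 0.11, adjusted p = 0.00042), H2-K1 (-0.70 ± 0.15, adjusted p = 0.0062), Gbp2 (-1.08 ± 0.20, adjusted p = 0.0031) and Erap1 (-0.86 ± 0.19, adjusted p = 0.0089). Of the 17 not called, Tapbpl and Canx, which help to load peptides and to fold class I chains, each had a change of 0.23. H2-D1 and H2-K1 encode class I heavy chains, Erap1 trims their peptides and Gbp2 is an interferon-induced GTPase. Tap1, the neighbour of Psmb9, had 8.94, 9.03 and 8.85 at 6°C, against 9.84, 9.43 and 9.69 at 28°C, without overlap (adjusted p = 0.42). Nlrc5, the transactivator of class I genes, had 8.58, 9.09 and 9.03 at 6°C, against 9.68, 9.76 and 9.74 at 28°C (adjusted p = 0.40).

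Markers of blood-derived cells stood as follows in these arrays. The mean of the 8 lymphocyte genes was 6.33 to 6.73 in BAT at 6°C, against 6.19 to 7.0 at 28°C, so the groups overlapped, and 0 of 8 were called by limma (0 with an unadjusted p under 0.05). The T cell gene Cd3e, at 4.02 to 5.32, and the B cell gene Ms4a1, at 4.98 to 6.21, were under the array median on all 6 BAT arrays. That median was 6.97 to 7.04. Other genes of the list lay higher. Ptprc, at 7.90 to 9.28, was above the median on all 6. Cd79a, at 6.35 to 7.27, was above it only on array 3 of BAT at 28°C. The mean of 5 macrophage genes was 9.05 to 9.39 in BAT at 6°C, against 9.49 to 9.84 at 28°C, without overlap. Of the 5, limma called 1 lower, against 2.53% of all genes: Cd14 (-0.83 ± 0.18, adjusted p = 0.0087). The median change of the 5 was -0.42, and 3 had an unadjusted p under 0.05. The mean of 5 brown adipocyte genes was 12.33 to 12.44 at 6°C, against 11.80 to 11.99 at 28°C. The part of these cell types in the lower inducible subunits was not tested.

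With each gene centred on its mean over all arrays, the median of Psmb8, Psmb9 and Psmb10 was -1.71, -1.36 and -1.56 in BAT at 6°C, against -0.53, -0.81 and -0.45 at 28°C. It was -0.44 on array 3 of mWAT at 6°C and -0.37 on array 3 of mWAT at 28°C, but 0.84 to 1.20 on the other 4 mWAT arrays. In sWAT it was 0.20, 0.40 and 0.53 at 6°C, against 0.98, 0.59 and 0.19 at 28°C, and the sWAT arrays had the same order by lymphocyte mean within each temperature (9.71, 10.58 and 10.89 at 6°C, and 11.55, 10.70 and 9.86 at 28°C). The part of lymphocyte RNA in the levels of the white depots was not tested. In BAT the lymphocyte means of both temperatures overlapped, and the macrophage means did not. Of the lymphocyte genes, Cd3e and Ms4a1 were under the array median on every BAT array and Ptprc above it. On the BAT arrays at 6°C the median of the inducible subunits had the order of the lymphocyte mean (6.33, 6.73 and 6.49). At 28°C it did not (6.19, 6.25 and 7.0). The part of either cell type in the BAT levels was not tested.

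**Figure D4:**
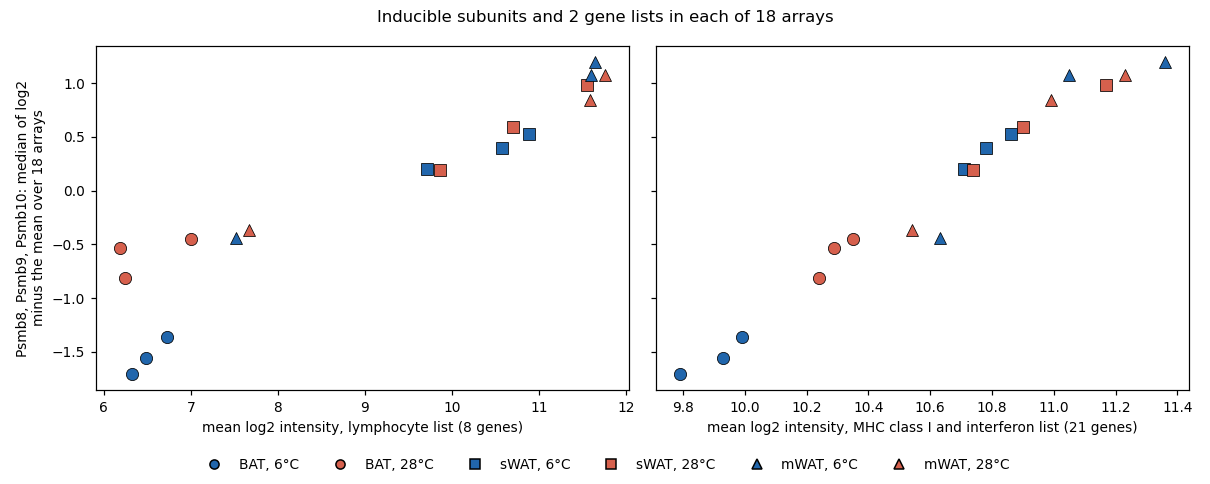
Each of the 18 arrays by the median centred log2 level of Psmb8, Psmb9 and Psmb10 (y axis) and the mean log2 level of lymphocyte genes (left x axis) or of MHC class I and interferon genes (right x axis), with shape by depot, blue at 6°C and red at 28°C. In the left panel BAT arrays of both temperatures share the range 6.19 to 7.0. They lie at -1.36 or below at 6°C and at -0.81 or above at 28°C, and 2 mWAT arrays lie far below the other 4.

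In sWAT most constitutive subunits also had a positive change. Of the 31, 29 were positive, with a median of 0.15, and 17 had all arrays at 6°C above those at 28°C. Over all 50 members 19 did so, where 13.1% of all genes did, and 3 had all arrays at 6°C below, where 8.66% did. By limma, 0 of 50 were called, against 0.72% of all genes called higher and 0.022% lower, and 10 had an unadjusted p under 0.05. Cap subunits stood first: Psmd4 changed by 0.34 ± 0.09 (adjusted p = 0.092), Psmd1, the scaffold of the cap, by 0.32 (adjusted p = 0.15), and Psmd7 by 0.35 (adjusted p = 0.30). The dimmer probe sets of Psmd4 changed by 0.51 (adjusted p = 0.02) and 0.21 (adjusted p = 0.58) and were not called.

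Per array, Psmd7 had 10.37, 10.30 and 10.48 in sWAT at 6°C, against 9.85, 10.02 and 10.24 at 28°C, and Psmc4 had 12.31, 12.19 and 12.05 at 6°C, against 11.92, 11.97 and 11.82 at 28°C. Neither overlapped. Psmb8 had 11.32, 11.56 and 11.64 at 6°C, against 12.07, 11.79 and 11.45 at 28°C, and Psmb9 and Psmb10 overlapped likewise, with changes of -0.26, -0.23 and -0.21 for the 3 genes. Without the 3 muscle-rich sWAT arrays these were 0.03, 0.18 and -0.00. Psme1 had 13.02, 13.10 and 13.11 at 6°C, against 13.30, 13.15 and 12.98 at 28°C, and also overlapped.

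In mWAT the constitutive subunits had a median change of 0.07, 26 of 31 positive. By limma, 0 of 50 members were called, against 0.0055% of all genes called higher and 0.0% lower, and 0 had an unadjusted p under 0.05. The arrays at 6°C lay all above those at 28°C for 6 members, where 4.73% of all genes did, and all below for 1, where 2.8% did. Psma5, an alpha subunit, and Psmb10 had changes of 0.20 and 0.31 (both with an adjusted p of 1.0). Psmb10 had 12.21, 12.33 and 11.31 at 6°C, against 11.75, 11.76 and 11.41 at 28°C.

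Whether BAT changed more than the white depots was tested as the difference of the cold responses, and 0 of 50 members were called by limma in any of the 3 pairs of depots. For BAT minus sWAT, 0.187% of all genes were called higher and 0.28% lower, and 3 members had an unadjusted p under 0.05. For BAT minus mWAT, 0.324% were called higher and 0.242% lower, and 6 members had an unadjusted p under 0.05. For sWAT minus mWAT, 0.0% were called either way and 0 members had an unadjusted p under 0.05. The nearest to the threshold was Psmb10, whose response in BAT was lower than in mWAT by 1.23 ± 0.30 (adjusted p = 0.045). It was followed by Psmd7, with a difference of 0.69 ± 0.20 (adjusted p = 0.087), and Psme1, with -0.79 ± 0.23 (adjusted p = 0.099).

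Between depots, Psmb8, Psmb9, Psmb10 and Psme1 were lower in BAT than in both white depots at 6°C. At 6°C, BAT minus mWAT, 16 members were called higher, against 21.3% of all genes, and 4 lower, against 18.9%. At 6°C, BAT minus sWAT, 5 were called higher, against 13.4%, and 4 lower, against 13.4%. The 4 lower ones were these genes in both, and both comparisons share the BAT arrays. Psmb8 in BAT at 6°C differed from sWAT by -2.0 ± 0.39 (adjusted p = 0.0012) and from mWAT by -2.18 ± 0.39 (adjusted p = 0.00037). For Psmb9 the differences were -1.94 (adjusted p = 0.0035) and -2.28 (adjusted p = 0.00069), for Psmb10 -0.88 (adjusted p = 0.0049) and -1.44 (adjusted p = 6.4e-05), and for Psme1 -0.95 (adjusted p = 0.00051) and -1.05 (adjusted p = 0.00011). Without the 3 muscle-rich sWAT arrays, 1 of the 4, Psme1, was called lower in BAT than in sWAT, and all 4 remained called lower than in mWAT. The lymphocyte means of these depots at 6°C, 9.71 to 10.89 for sWAT and 7.52 to 11.64 for mWAT, lay all above those of BAT, 6.33 to 6.73. So did the macrophage means, 10.49 to 10.91 for sWAT and 10.77 to 11.15 for mWAT, against 9.05 to 9.39 for BAT. All 5 macrophage genes and 5 of the 8 lymphocyte genes were called lower in BAT than in each white depot. Of the 21 genes of MHC class I and the interferon response, 8 were called lower in BAT than in sWAT and 14 lower than in mWAT. The part of these cell types in the depot differences was not tested.

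At 28°C the inducible subunits were not called between BAT and a white depot in the fit of all arrays. Psmb8 in BAT differed from sWAT by -1.33 (adjusted p = 0.016) and from mWAT by -1.16 (adjusted p = 0.029), with the BAT arrays below those of both. In a fit of BAT and sWAT at 28°C alone, Psmb8 (adjusted p = 0.0031) and Psmb9 (adjusted p = 0.0071) were called lower and no member higher. At 28°C the BAT arrays lay all above those of sWAT for 18 members (30.6% of all genes) and all below for 10 (27.6%), and all above those of mWAT for 19 (31.6%) and all below for 8 (25.4%). Psmb10 differed by only -0.16 and -0.20 and overlapped. In order of mean level, Psmb8 and Psmb9 were lowest in BAT at 6°C, then in BAT at 28°C, and the 4 white groups overlapped among themselves. The lowest Psmb8 level in mWAT at 6°C, 10.62, also fell within the range of BAT at 28°C. Psmb10 was lowest in BAT at 6°C, and its other 5 groups overlapped one another.

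Psmg1, a chaperone that starts the alpha ring, had the largest positive difference between BAT and both white depots at both temperatures. It had 11.03, 11.09 and 11.06 in BAT at 6°C, against 10.39, 10.17 and 10.30 in sWAT and 9.83, 9.88 and 10.03 in mWAT at 6°C. At 28°C it had 10.90, 10.90 and 10.77 in BAT, against 9.97, 10.30 and 10.25 in sWAT and 9.87, 9.94 and 10.00 in mWAT. BAT lay above both on every array. The differences from sWAT were 0.77 at 6°C and 0.68 at 28°C, and those from mWAT 1.15 and 0.92, and all 4 were called (adjusted p = 0.00010, 0.00025, 1.3e-06 and 1.3e-05).

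At 28°C, BAT minus sWAT called 2 members higher, Psmg1 and Psmd8 (0.53), against 14.5% of all genes, and 0 lower, against 13%, with 15 members at an unadjusted p under 0.05. BAT minus mWAT called 10 higher, against 17.7%, and 1 lower, against 14.8%, the largest being Psmg1, Psmd9 (0.65) and Psmd8 (0.61), and the lower one the dim Psma8 (-0.88). BAT arrays had lower medians than white ones, and centring each array on its median would add 0.14 and 0.13 to these differences at 28°C and 0.17 and 0.19 to those at 6°C. With centring, 16 members were called higher and 3 lower for BAT minus sWAT at 6°C, against 5 and 4 without it, and quantile normalization left 1 higher and 4 lower. For BAT minus mWAT at 6°C the split with centring was 29 and 4. The inducible subunits were lower under each scaling, while for Psmb10 against sWAT the call was lost with centring.

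Among the cap and core genes called higher in BAT than in mWAT at 6°C were Psmd7 (0.65), Psmd3 (0.58), Psmc4 (0.56), Psmd8 (0.53) and Psmb7 (0.52). The activators and the inhibitor stood in the same direction, with Psmf1 at 0.62, Psme3 at 0.53 and Psme4 at 0.49, all called, apart from Psme1. Against sWAT at 6°C those called were Psmg1 (0.77), Psmg3 (0.50), Psmc4 (0.43), Psme3 (0.42) and Psmd8 (0.38), where Psmg3 is another chaperone of the alpha ring.

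**Figure D5:**
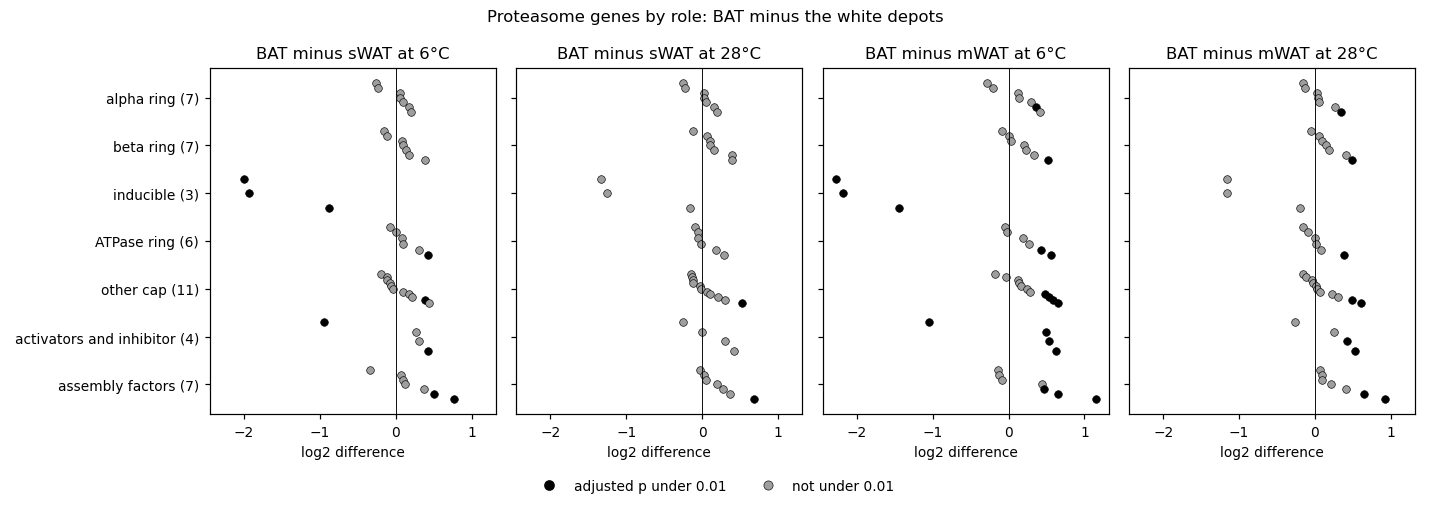
Log2 difference (x axis) of BAT minus sWAT and BAT minus mWAT at 6 and at 28°C for each gene, 1 point a gene, in rows by role with the number of genes; black points had an adjusted p under 0.01 in limma. At 6°C the 3 inducible subunits and Psme1 are the 4 black points left of 0 in both comparisons, and Psmg1 is the rightmost point of every panel.

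The white depots differed little in these genes. At 6°C, sWAT minus mWAT called Psmd9 higher (0.53, 1 of 50 against 5.17% of all genes) and Psma8 lower (-0.93, 1 of 50 against 5.01%). At 28°C it called 0 higher, against 3.05%, and Psma8 lower (-0.95, 1 of 50 against 4.82%), with 6 members at an unadjusted p under 0.05. Psma8 is the dim member, and its levels at 28°C were 6.34, 5.89 and 5.93 in sWAT, against 6.75, 7.12 and 7.14 in mWAT.

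Other genes that serve the proteasome, such as ubiquitin shuttles, deubiquitinases and processing factors of Nfe2l1, were taken from a list of 45, of which 34 had a probe set. In BAT at 6 versus 28°C, 0 of the 34 were called higher, against 2.8% of all genes, and 1 lower, against 2.53%. The median change was 0.05. In sWAT limma called 0, against 0.72% of all genes higher and 0.022% lower, with 5 at an unadjusted p under 0.05. In mWAT it called 0, against 0.0055% and 0.0%, with 0 at an unadjusted p under 0.05. The one called was Nfe2l3, a relative of Nfe2l1, at -2.15 ± 0.29 (adjusted p = 0.00037). Pomp, the maturation factor of the core, changed by 0.13, and Ngly1, the glycanase that processes Nfe2l1, by 0.32 (adjusted p = 0.12). Between depots at 28°C, 6 were called higher in BAT than in sWAT and 0 lower, against 14.5% and 13% of all genes, among them Usp14, a deubiquitinase of the cap (0.79), and Ubqln4, a ubiquitin shuttle (0.74), and Ngly1 was called higher in BAT in all 4 comparisons with white depots, by 0.61 to 0.93.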

How the data were processed

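The authors extracted total RNA with Trizol, amplified and labelled it with a NuGEN kit, and hybridized it to Affymetrix mouse arrays. Their methods and legends name different array types. They background adjusted, summarized and normalized the raw values with R and Bioconductor by an algorithm not given in the sources used here. The deposited table holds 1 linear intensity for each probe set and array, already normalized by the authors, with no background or detection value, so 3 arrays a group limit the precision.

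The log2 of the deposited intensity was tested as it stood, with no filter, in R 4.3.3 with limma 3.58.1. The fit held 6 group means, with 12 residual and 2.64 prior degrees of freedom. There were 12 contrasts, covering the cold response of every depot, the pairs of depots at either temperature, and the differences between cold responses. Benjamini-Hochberg adjustment ran over 45037 probe sets (64 control probe sets left out), with a threshold of 0.01. The fit was checked on simulated data with independent noise and, for each probe set, the same spread in all groups. That check cannot cover unequal spread between groups or differences in tissue content between arrays. The p-values measure only the spread between these arrays. Probe sets were named from the platform annotation (34945 name 1 gene, 932 several, 9160 none). Each gene is given by its probe set of highest mean.

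Members described array by array were Nfe2l1, both sets of catalytic subunits and members called in the cold. Others are the extremes of a role and the largest calls between depots, and Psmg1, Psma8 and genes just short of the threshold were named after their values were seen. Members, roles and lists were chosen with earlier results of these data known. The alternatives were an adjusted p of 0.05, a 2-fold minimum, only the compared groups, quantile normalization, median centring, leaving out dim probe sets, a variance trend with robust estimates, the mean of a gene's probe sets, and leaving out each array in turn. Leaving out arrays by their lymphocyte, muscle (BAT or sWAT) or pancreas level, or all of mWAT, was added after the data were seen. Background shares count 18193 genes, and none was counted for an unadjusted p under 0.05.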

Additional observations from a re-analysis of the deposited data

How the results depend on the processing

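The count of members called depended on the settings, and no called change of a named member turned its sign under any alternative. Against 3 members called in BAT at 6 versus 28°C, an adjusted p of 0.05 gave 8, a 2-fold minimum 0, the compared groups alone 1 (Psmb10 lower, none of the 3), leaving out dim probe sets 6, and a variance trend with robust estimates 8. Without both mesenteric arrays poor in lymphocyte RNA it was 7, without the 6 mesenteric arrays 5, and without the 3 arrays of BAT or the 3 of sWAT high in muscle genes, or the 3 arrays high in pancreas genes, 0. Leaving out the 3 muscle-rich arrays leaves 1 array in BAT or sWAT at 28°C, which is then assumed to vary like the other groups. Leaving out single arrays gave 0 to 5, with 0 for each BAT array and 5 without array 3 of mWAT at 6°C. In sWAT the variance trend called 1 member, Psmd4, and leaving out single arrays gave 0 to 0 in both white depots.

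For BAT minus sWAT at 28°C (2 called) the settings gave 10 at an adjusted p of 0.05, 0 with the 2-fold minimum, 8 centred, 6 without dim probe sets, 5 with the variance trend, 5 with the mean of probe sets, 4 without both mesenteric arrays, 0 without the muscle-rich arrays of BAT or of sWAT, and 4 without mWAT. The compared groups alone gave 2 again but not the same genes: Psmb8 (adjusted p = 0.0031) and Psmb9 (adjusted p = 0.0071) lower, in place of Psmg1 and Psmd8 higher. Single arrays gave 2 to 4, the 4 without array 3 of mWAT at 6°C. For BAT minus mWAT at 28°C (11 called) they gave 0 with the 2-fold minimum, 1 with the compared groups alone, 3 without the muscle-rich BAT arrays and 6 without pancreas-rich arrays. Single arrays gave 5 to 12, with 5 without array 1 or 3 of BAT and 6 without array 2 of BAT or array 1 or 2 of mWAT at 28°C. For sWAT minus mWAT at 28°C (1 called) an adjusted p of 0.05 gave 2, and the 2-fold minimum, the compared groups alone, leaving out dim probe sets, both mesenteric arrays or the muscle-rich BAT arrays gave 0. Single arrays gave 0 to 1, with 0 without array 2 or 3 of sWAT or of mWAT at 28°C.

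For BAT minus sWAT at 6°C (9 called) the settings gave 17 at an adjusted p of 0.05, 2 with the 2-fold minimum, 5 with the compared groups alone, 5 with quantile normalization, 19 centred, and 3 without the muscle-rich arrays of BAT, without those of sWAT, or without pancreas-rich arrays. Single arrays gave 3 to 9, with 5 without array 1 of sWAT or array 2 of BAT and 3 without array 2 or 3 of sWAT or array 1 or 3 of BAT at 6°C. For BAT minus mWAT at 6°C (20 called) they gave 5 with the 2-fold minimum, 3 with the compared groups alone, 33 centred and 6 without pancreas-rich arrays, and single arrays gave 16 to 21. For sWAT minus mWAT at 6°C (2 called) they gave 0 with the 2-fold minimum, the compared groups alone, or without the muscle-rich arrays of BAT or of sWAT or the pancreas-rich arrays, and 1 without dim probe sets or with the mean of probe sets. Single arrays gave 0 to 2, with 0 without array 2 or 3 of sWAT or array 1 or 2 of mWAT, and 1 without array 1 of sWAT or any array of BAT at 6°C. The difference of cold responses of BAT and mWAT (0 called) gave 1, Psmb10, at an adjusted p of 0.05 and without both mesenteric arrays, and single arrays gave 0 to 1, the 1 without array 3 of mWAT at 6°C. The other differences of cold responses gave 0 to 0. The cause was not tested.

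Of 3106 values of named changes under the alternatives, 30 had the opposite sign, all of changes that were not called and 20 of them in mWAT at 6 versus 28°C. The mean of probe sets gave Psmc4 -0.00 and Psmd7 0.06 in mWAT and Psmc6 0.02 in BAT. Without pancreas-rich arrays Psmb6 was 0.04 and Psme1 -0.02 in mWAT, and without both mesenteric arrays Psmb7 was -0.04. Without the 3 muscle-rich sWAT arrays Psmb7 was -0.00, Psmb8 0.03, Psmb9 0.18 and Psme1 0.08 in sWAT at 6 versus 28°C, and Psmb10 was 0.09 for BAT minus sWAT at 28°C. Leaving out single arrays gave ranges in mWAT of -0.06 to 0.05 for Psmb6, -0.07 to 0.15 for Psmb7, -0.35 to 0.62 for Psmb8, -0.30 to 0.79 for Psmb9, -0.13 to 0.10 for Psmd7 and -0.11 to 0.22 for Psme1, in sWAT of -0.14 to 0.02 for Psmb6 and -0.15 to 0.01 for Psme1, and in BAT of -0.01 to 0.15 for Psma5. No paired analysis was possible because the labels carry no replicate numbers and give no key from array to mouse.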
